A study of Mus musculus with 6 samples.

Results

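The interleukin-1 family of cytokines and its receptors were followed at the transcript level in macrophages derived from the human acute monocytic leukaemia line THP-1, with and without melittin, the membrane-active peptide of bee venom. The 10 genes were picked by name: the agonists IL1A, IL1B, IL18, IL33 and IL36G, the receptor antagonist IL1RN, the receptors IL1R1, IL1R2 and IL1RAP, and the soluble inhibitor IL18BP. Each was found in 1 row of the 20036 genes of the deposited table. All 10 were among the 12029 genes that passed a filter on low counts and were tested, IL36G through its melittin libraries alone.

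The melittin group (3 libraries) held THP-1 cells that had received the phorbol ester PMA at 100 ng/ml for 48 h in the lower well of a Transwell, and then 3 µg/ml melittin for 48 h while tumour cells sat in the upper chamber. The control group (3 libraries, NC in the labels) came from the same line, and PMA is described for all of the cells. What control wells were given in place of melittin, and whether tumour cells sat above them, is not stated in the labels, so melittin and co-culture cannot be told apart. The organism field reads mouse, while all 20036 gene identifiers are human.

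Interleukin-1α and interleukin-1β bind the receptor IL1R1, which then takes up the accessory chain IL1RAP and signals through MYD88 and IRAK kinases to NF-kB. IL1RN occupies IL1R1 without recruiting the accessory chain, and IL1R2 binds the ligands without a signalling domain, so both restrain the agonists. IL1RAP is shared with the receptors of interleukin-33 and of the interleukin-36 cytokines, while interleukin-18 has its own receptor pair and is neutralised by IL18BP. Macrophages are a main source of interleukin-1β, which is made as a precursor and cut by caspase-1. Transcript levels measure neither the cutting nor the release of the proteins.

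Libraries held 16192032 to 19521897 counts with melittin and 16001423 to 19597781 in controls, so that 1 count was worth 0.0510 to 0.0625 CPM (reads scaled to the size of the library). Of 14 monocyte and macrophage markers, 14 had at least 1 count, and their summed level was 1733 to 1766 CPM with melittin and 2271 to 2291 CPM in controls. Of the 12 markers tested, 7 were lower with melittin, 3 were higher (ITGAM, ITGAX and TYROBP) and 2 did not pass. Among all tested genes 38.3% were lower and 38.1% higher. CSF1R, CD14 and PTPRC were among the markers present and were lower (log2 fold changes of −1.62, −1.09 and −1.40). CD68 had 1 count in all libraries together, and whether its reads had been left out of the counts was not tested. Of 14 markers of epithelial and prostate cells 7 had a count, while EPCAM, KRT18, KRT19, KRT5, KRT14, KLK2 and TMPRSS2 had 0 counts in every library. Of 6 fibroblast markers, whose sum was 45.5 to 48.9 CPM with melittin and 54.9 to 56.2 CPM in controls, COL1A1 was higher with melittin and PDGFRA lower, while COL1A2 had 0 counts. The 4 markers of T and NK cells summed to 9.43 to 11.1 CPM with melittin and 2.71 to 3.54 CPM in controls, nearly all of it NKG7 (9.95 ± 0.781 CPM with melittin and 3.23 ± 0.446 CPM in controls), while CD3D had 0 counts and CD3E and CD2 had 2 counts each over the melittin libraries against 1 count of CD3E and 0 of CD2 over the controls. The 4 neutrophil markers summed to 5.79 to 6.23 CPM with melittin and 1.67 to 1.92 CPM in controls, nearly all of it CSF3R (5.89 ± 0.187 CPM with melittin and 1.62 ± 0.204 CPM in controls). Of the others, CXCR2 had 3 counts over the melittin and 9 over the control libraries, MPO had 1 over each group, and FCGR3B had 2 over the melittin and 0 over the control libraries. The 3 B cell markers summed to 0.715 to 1.07 CPM with melittin and 0.347 to 0.492 CPM in controls, with MS4A1 at 0 counts. The part of such shifts in the results that follow was not tested. In bulk RNA, fewer cells of a kind and less RNA per cell cannot be told apart.

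Most of the 10 members were higher with melittin. By edgeR's quasi-likelihood test with Benjamini-Hochberg adjustment over all tested genes, 9 of 10 members rose and 1, IL18BP, fell at an adjusted p below 0.05. Of all tested genes 76.4% passed this test, 38.1% as higher and 38.3% as lower, so that passing it was common among all genes. The 9 of 10 in 1 direction compare with 38.1%, but the members were chosen with earlier results of these data known. Only its melittin libraries brought IL36G, counted among the 9, past the filter on low counts. Of 12 further family genes 4 were tested, of which 2 were higher and 2 did not pass. The median log2 fold change was 1.19 over the 10 members and −0.007 over all tested genes. In 9 of 10 members the 3 melittin values lay outside the range of the 3 control values, as in 77.4% of all tested genes. Against a fold change of 1.5 in place of 0, 6 members passed, all of them higher: IL1A, IL1B, IL1RN, IL33, IL36G and IL1R2 (29.1% of all tested genes passed that test). Nothing in the labels says that the 3 libraries of a group came from separate cultures, so the p-values reflect spread among libraries that could be technical.

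**Figure D1:**
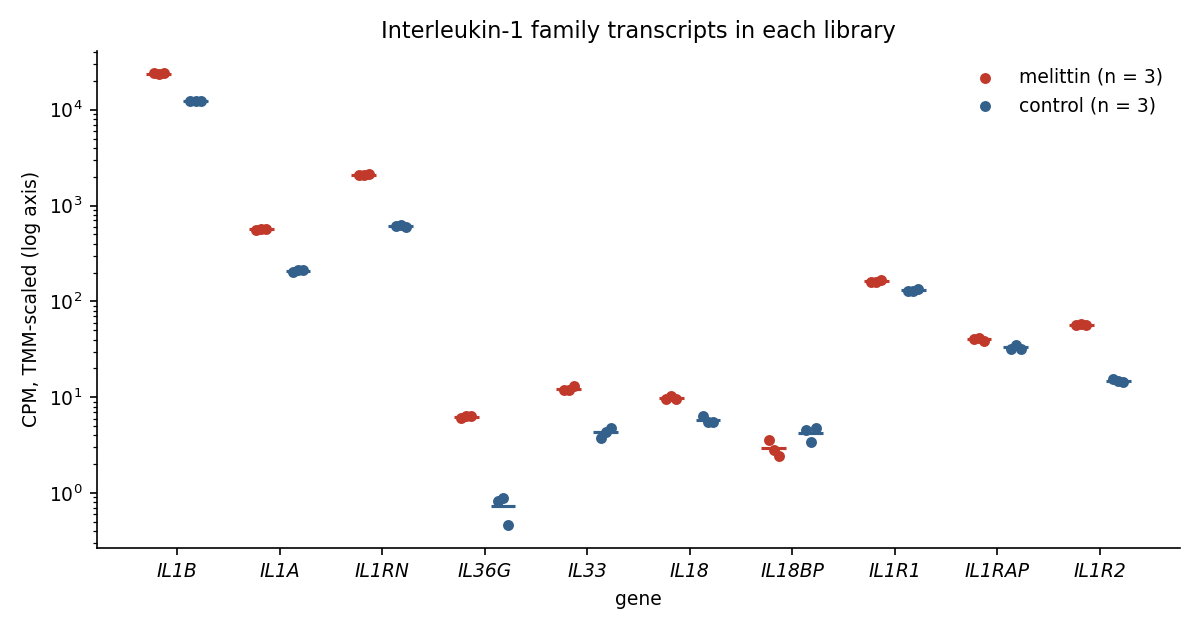
Level of each gene in each library, as TMM-scaled CPM on a log axis, with melittin libraries (red, left of each pair) and control libraries (blue, right). Points are libraries and lines are means of 3. The 3 melittin points lie above the 3 control points in every gene but IL18BP, where the groups overlap.

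IL1B (ENSG00000125538; chromosome 2, 112829751 to 112836816, minus strand, GRCh38) was the most abundant member in all 6 libraries. It had 23899.6, 23361 and 23930 CPM in melittin replicates 1, 2 and 3, against 12339.7, 12280 and 12398 CPM in control replicates 1, 2 and 3. The melittin libraries were all high and the replicates of a group lay close together. The log2 fold change was 0.94 (SE 0.0124, adjusted p = 1.43e-29), or 1.92-fold. IL1B alone took 2.15 to 2.21% of all counts with melittin and 1.33 to 1.34% in controls. Per kilobase of the table's gene length it ranked 3 among all genes in each melittin library and 4 in each control library.

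IL1A (ENSG00000115008; chromosome 2, 112773925 to 112784493, minus strand), the other agonist of IL1R1, had 553.6, 573.7 and 562.3 CPM with melittin and 203.4, 211.0 and 214.3 CPM in controls. Its groups did not overlap, and the log2 fold change was 1.43 (SE 0.0271, adjusted p = 7.58e-26). Of the 10 members it was the third most abundant in both groups, at a small share of the level of IL1B.

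IL1RN (ENSG00000136689; chromosome 2, 113099315 to 113134016, plus strand) encodes the antagonist that competes with both agonists for IL1R1. It had 2095, 2089 and 2122 CPM with melittin against 606.0, 619.6 and 601.3 CPM in controls, with no overlap. At 1.79 its log2 fold change (SE 0.0210, adjusted p = 9.64e-31) was above those of IL1A and IL1B. The table counts reads per gene, so the secreted and intracellular forms made from this gene could not be separated.

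The remaining 3 agonists were low transcripts that rose with melittin. IL36G (ENSG00000136688; chromosome 2, 112973203 to 112985658, plus strand), an epithelial and myeloid cytokine that acts through IL1RL2, had 93, 114 and 95 counts with melittin and 17, 19 and 8 counts in controls. In CPM these were 6.05, 6.34 and 6.36 with melittin against 0.836, 0.894 and 0.462 in controls, so every melittin library was far above every control. The log2 fold change of 3.06 (8.32-fold, SE 0.225, adjusted p = 1.33e-12) was the largest of the 10, from a control level of 8 to 19 counts a library. With 8 counts in control replicate 3, the control libraries alone would not have met the filter on low counts. The melittin libraries, where IL36G was high, thus brought it into the test. With no such filter its log2 fold change was 3.04.

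IL33 (ENSG00000137033; chromosome 9, 6215786 to 6257983, plus strand), a nuclear alarmin whose receptor is IL1RL1, had 11.8, 11.8 and 13.2 CPM with melittin against 3.79, 4.38 and 4.79 CPM in controls. The groups did not overlap and the log2 fold change was 1.51 (SE 0.126, adjusted p = 1.88e-11). IL18 (ENSG00000150782; chromosome 11, 112143253 to 112164096, minus strand), which with interleukin-12 drives interferon-γ in lymphocytes, had 9.56, 10.4 and 9.51 CPM with melittin and 6.34, 5.55 and 5.54 CPM in controls. Its melittin values were higher in 3 of 3 libraries, with a log2 fold change at 0.76 (SE 0.121, adjusted p = 2.9e-06), and it missed the test against 1.5-fold (adjusted p = 0.0832).

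IL18BP (ENSG00000137496; chromosome 11, 71998613 to 72007315, plus strand), the secreted protein that neutralises interleukin-18, was the member that fell. It had 55, 51 and 36 counts with melittin against 92, 72 and 83 counts in controls, which is 3.58, 2.84 and 2.41 CPM with melittin against 4.52, 3.39 and 4.79 CPM in controls. Melittin replicate 1 lay above control replicate 2, so the groups overlap. The log2 fold change was −0.52 (SE 0.195, adjusted p = 0.0189). The call was lost in DESeq2 (adjusted p = 0.0669) and in 4 of the 6 fits with a library left out: without control replicate 1 (adjusted p = 0.0668), control replicate 3 (0.0824), melittin replicate 2 (0.0515) or melittin replicate 3 (0.0832). IL18BP also lies across NUMA1 on the opposite strand, over 4452 bases. NUMA1 had 21.4 ± 1.62 CPM with melittin and 24.4 ± 2.68 CPM in controls (SD, n = 3 each). As no strand setting is given in the sources used here, the reads of these genes cannot be told apart with certainty. IL18 overlaps an unnamed gene on the opposite strand that had 0 counts in every library, and the other 8 members overlap no gene of the table.

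Of the receptors, the decoy changed most. IL1R2 (ENSG00000115590; chromosome 2, 101991960 to 102028544, plus strand) had 56.0, 58.5 and 56.9 CPM with melittin against 15.4, 14.6 and 14.4 CPM in controls. The replicates of each group lay within a few CPM and the groups were far apart. The log2 fold change was 1.95 (SE 0.0627, adjusted p = 1.26e-20), or 3.85-fold.

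The signalling chains moved little. IL1R1 (ENSG00000115594; chromosome 2, 102064544 to 102179874, plus strand) had 158.1, 159.5 and 167.1 CPM with melittin and 129.1, 128.8 and 135.5 CPM in controls. Its log2 fold change was 0.30, with an SE of 0.0333 (adjusted p = 5.09e-09). IL1RAP (ENSG00000196083; chromosome 3, 190514051 to 190659750, plus strand) had 40.6, 41.2 and 39.1 CPM with melittin and 32.1, 35.2 and 32.0 CPM in controls. Its log2 fold change was 0.28, with an SE of 0.0597 (adjusted p = 0.000119). Melittin values of both were above all control values, and both missed the test against 1.5-fold (adjusted p = 1 for each).

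How far IL1R1 and IL1RAP rose rests on the scaling. TMM factors were 0.921 to 0.926 for melittin and 1.08 for control libraries, and on library totals without such factors the median gene stood at a log2 fold change of −0.238. With that scaling 33.6% of the called genes were higher, against 49.8% with TMM. On library totals the log2 fold change was 0.07 for IL1R1 (adjusted p = 0.0556) and 0.05 for IL1RAP (adjusted p = 0.428), so both calls ended. Relative to the median gene, IL1R1 stood at 0.31 and IL1RAP at 0.29 under either scaling. The other 8 members kept their direction and call under both scalings.

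**Figure D2:**
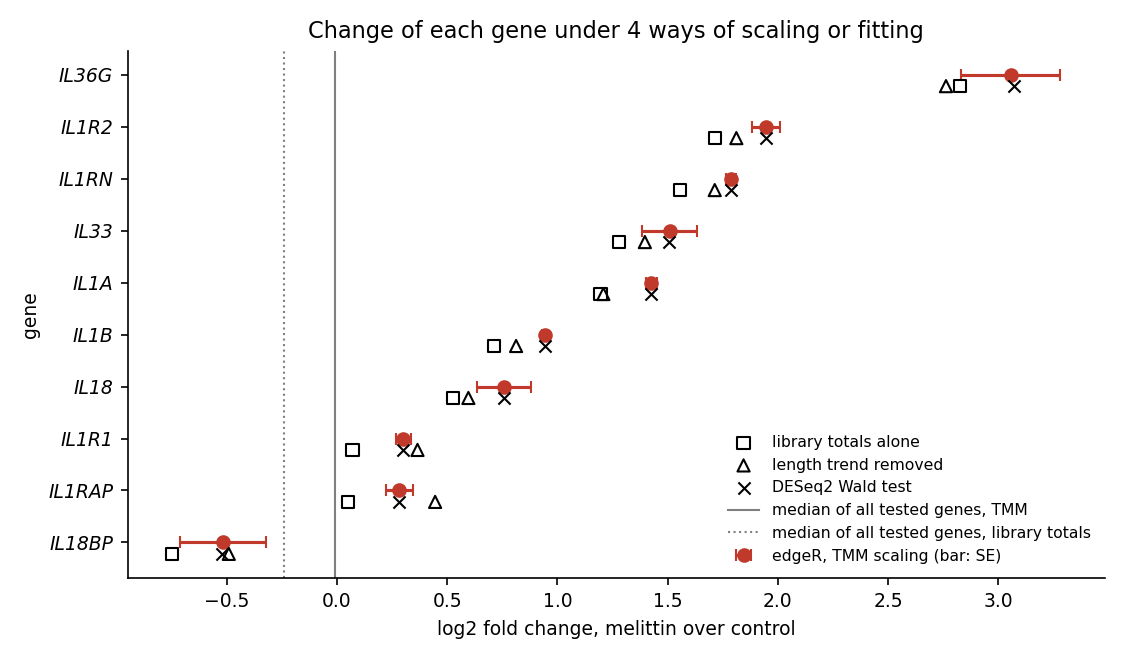
Log2 fold change of melittin over control for each gene, with the edgeR estimate on TMM scaling (red, bar 1 SE) and black symbols for library totals alone, for the trend on gene length removed and for DESeq2. Grey lines mark the median of all tested genes at −0.007 (TMM) and −0.238 (library totals), and IL1R1 and IL1RAP come closest to 0 on library totals.

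Because members differ in length, their levels were compared as TMM-scaled CPM per kilobase of the table's gene length. The lengths of the transcripts in use were not known, so members of close level may stand in another order. The summed level of the 10 members was 8787 ± 105.2 with melittin and 4399 ± 18.7 in controls (SD, n = 3 each). IL1B made up 89.8 ± 0.157% of that sum with melittin and 93.2 ± 0.0919% in controls, IL1RN 6.41 ± 0.0534% with melittin and 3.71 ± 0.0723% in controls, and IL1A 3.18 ± 0.0918% with melittin and 2.36 ± 0.0590% in controls. All other members together held the small remainder.

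In order of level per kilobase, IL1B, IL1RN, IL1A, IL1R1 and IL1R2 came first in both groups. With melittin, IL1R1 stood at 22.7 ± 0.684 and IL1R2 at 19.3 ± 0.426, while in controls IL1R1 stood at 18.4 ± 0.529 and IL1R2 at 5.01 ± 0.170. The order below them differed: IL36G, IL33, IL18, IL1RAP and IL18BP followed with melittin, and IL1RAP, IL18, IL33, IL18BP and IL36G in controls. IL36G was thus sixth with melittin at 4.55 ± 0.130 and last in controls at 0.532 ± 0.171. The libraries of neighbours in this order did not overlap, except for IL33 (3.77 ± 0.246) and IL18 (3.77 ± 0.193) with melittin and for IL18BP and IL36G in controls.

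Antagonist and agonist were next set against each other within each library, as ratios of counts per length, which no library scaling can move. The level of each ratio rests on the table's gene lengths. Without division by length all 5 differences between the groups kept their sign. An exact two-sided permutation test was run on each of 5 ratios. With 3 libraries against 3 it cannot give a p below 0.1, which is also the value after adjustment over the 5 ratios.

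IL1RN per IL1B was 7.06, 7.21 and 7.14% with melittin and 3.96, 4.07 and 3.91% in controls. All melittin libraries were above all controls, and the ratio was 1.80-fold higher (difference of 0.84 in log2, exact permutation p = 0.1). Set against IL1A and IL1B together, IL1RN was 6.83, 6.95 and 6.90% with melittin and 3.86, 3.96 and 3.81% in controls, a difference of 0.83. IL1A per IL1B was 3.46, 3.66 and 3.51% with melittin and 2.46, 2.56 and 2.58% in controls, a difference of 0.48 (exact permutation p = 0.1 for both). In transcripts per length IL1B thus outnumbered its antagonist in every library.

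IL1R2 per IL1R1, the decoy against the signalling receptor, was 85.4, 88.4 and 82.1% with melittin against 28.8, 27.4 and 25.7% in controls. This was the largest difference of the 5 ratios, 1.65 in log2 (exact permutation p = 0.1), and the groups lay far apart. IL18BP per IL18 went the other way, with 16.8, 12.2 and 11.4% in melittin libraries and 31.8, 27.2 and 38.5% in controls. The difference was −1.28 in log2 (exact permutation p = 0.1), again with no overlap, although IL18BP on its own did overlap. All 5 differences kept their sign when any library was left out.

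**Figure D3:**
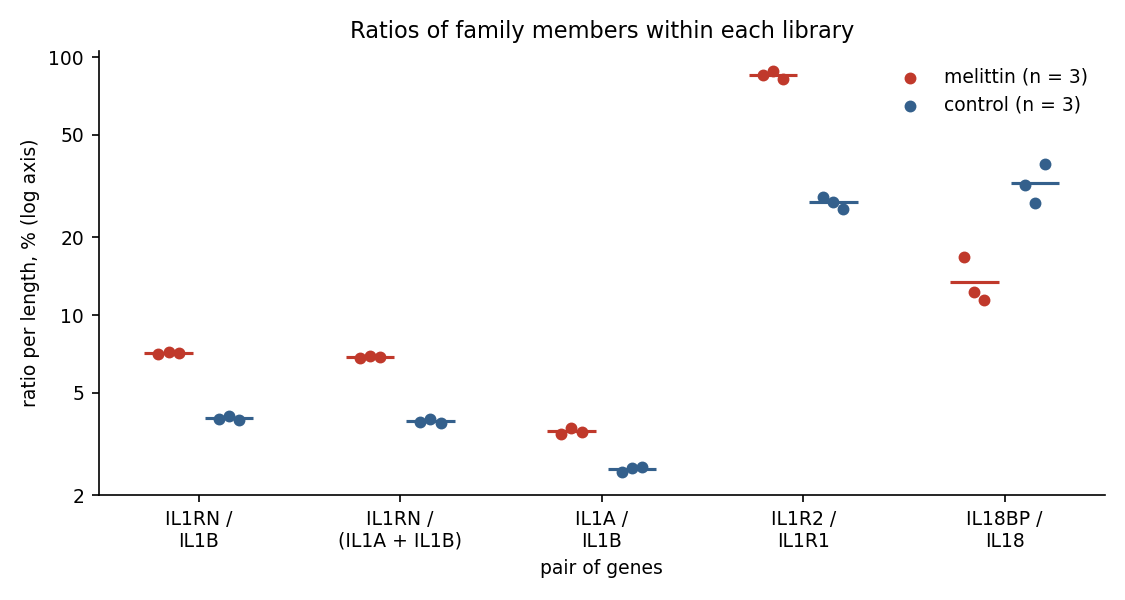
Ratio of counts per length between pairs of genes in each library, in percent on a log axis, with melittin libraries (red, left) and control libraries (blue, right). Points are libraries and lines are means of 3. The groups do not overlap in any pair, and IL18BP per IL18 is the pair that is lower with melittin.

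Of the 10 members, 6 lie on chromosome 2, in 2 clusters. The ligand cluster from IL1A to IL1RN spans 360.1 kb (112773925 to 113134016) and holds 9 genes of the table, all of the family. Of these 6 were tested and 4 were called, all higher, beside 76.4% of all tested genes called and 38.1% called as higher. Between IL36G, at 3.06, and IL1RN, at 1.79, lie IL36B and IL36RN, which did not pass on TMM scaling. IL36B, another IL-36 agonist, had 6.65 ± 0.0766 CPM with melittin and 6.95 ± 0.691 CPM in controls (log2 fold change −0.07, SE 0.128, adjusted p = 0.629), and passed as lower on library totals (−0.30, adjusted p = 0.0350). IL36RN, the antagonist of the IL-36 receptor, had 3, 19 and 11 counts with melittin and 13, 17 and 12 in controls. IL37, an anti-inflammatory member, had 15, 7 and 0 counts with melittin against 0, 0 and 1 in controls and was too low to be tested. IL36A had 1 count in all and IL1F10 had 0.

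The receptor cluster from IL1R2 to IL18RAP spans 460.6 kb (101991960 to 102452565) and holds 6 genes, of which 3 were tested and called as higher. Among all tested genes 76.4% were called and 38.1% were called as higher. The change was large in IL1R2 and small in its neighbour IL1R1. IL18R1, the ligand-binding chain for interleukin-18, had 17.5 ± 1.52 CPM with melittin and 14.3 ± 1.01 CPM in controls (log2 fold change 0.29, SE 0.0921, edgeR adjusted p = 0.00671), and did not pass on library totals (0.05, adjusted p = 0.593). Its partner IL18RAP had 15 counts over the melittin and 12 over the control libraries. IL1RL2, the receptor for IL36G, had 2 counts over the melittin and 5 over the control libraries, and IL1RL1, the receptor for IL33, had 0 counts in every library. IL1RL1 overlaps IL18R1 on the same strand, where reads may have been left out of the counts. No limit on the level of IL1RL1 can therefore be drawn from its count of 0. The 7 counts of IL1RL2 over the 6 libraries were too few for a test.

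**Figure D4:**
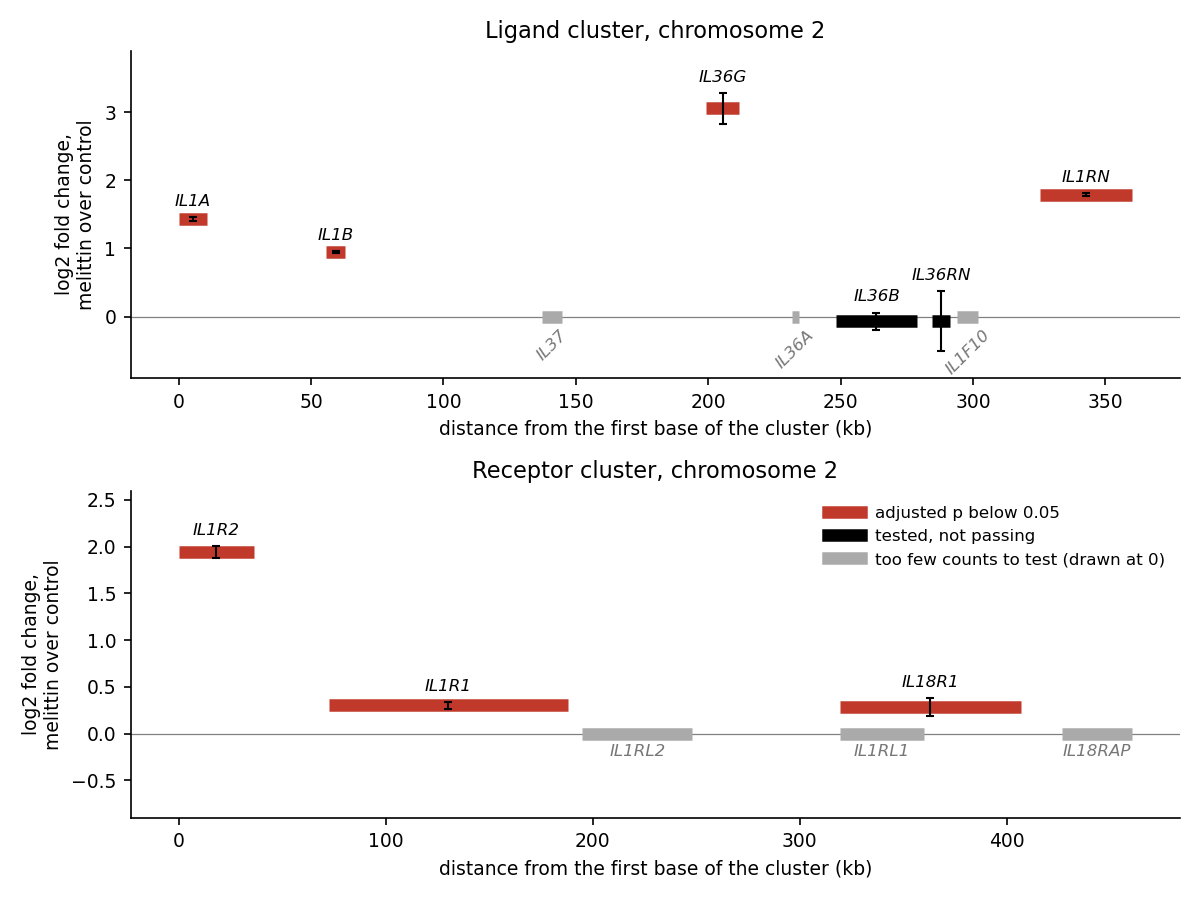
Log2 fold change (vertical axis, bars 1 SE) of genes along both clusters of chromosome 2, with distance in kb from the first base of each cluster on the horizontal axis. Red bars are genes called, black bars genes tested and not passing, and grey bars at 0 genes with too few counts to test. IL36B and IL36RN near 0 lie between IL36G and IL1RN.

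Beyond the 10 members, 12 further genes of the family were listed, of which 9 had a count and 4 could be tested. Of these 2 rose (IL18R1 and SIGIRR), 0 fell, and IL36B and IL36RN did not pass, with a median log2 fold change of 0.11. With library totals 1 rose and 1 fell, where 26.3% of all tested genes were higher and 51.9% lower. SIGIRR, a receptor that dampens interleukin-1 signalling, had 9.84 ± 0.819 CPM with melittin and 5.08 ± 0.367 CPM in controls (log2 fold change 0.96, SE 0.126, adjusted p = 1.26e-07). IL1RAPL1, a brain receptor of the family, had 7 counts over the melittin and 16 over the control libraries.

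Of 27 tested genes listed for the maturation and release of interleukin-1, 15 (55.6%) rose, 10 (37.0%) fell and 2 did not pass (median 0.42). The list also holds genes that restrain these steps, such as CARD16 and SERPINB1, both of which rose. Its counts therefore give no direction for maturation or release. Of all tested genes 38.1% were called higher and 38.3% lower, so the share that fell is close to that of all genes. With library totals 14 rose and 11 fell, where 26.3% of all tested genes were higher and 51.9% lower. AIM2, a sensor of cytosolic DNA, fell to 9.11 ± 0.412 CPM with melittin, against 27.2 ± 0.984 CPM in controls. NINJ1, which ruptures the membrane of dying cells, rose to 149.8 ± 4.72 CPM, against 64.9 ± 0.801 CPM in controls, and the pore former GSDME rose to 38.3 ± 1.74 CPM, against 17.8 ± 0.555 CPM in controls. CASP1, which cuts the precursors of IL1B and IL18 and was named after its values were seen, had 201.9 ± 2.91 CPM with melittin and 98.0 ± 1.56 CPM in controls (log2 fold change 1.04, SE 0.0316). GSDMD, the pore through which interleukin-1β leaves, had 30.7 ± 0.933 CPM with melittin and 31.3 ± 1.01 CPM in controls (log2 fold change −0.03, adjusted p = 0.707), and passed as lower on library totals (−0.26, adjusted p = 0.000548). S100A13, a partner in the export of interleukin-1α, had 3.60 ± 0.494 CPM with melittin and 2.68 ± 0.692 CPM in controls and did not pass.

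The signalling chain below the receptor had 11 of 25 members higher (44%), 10 lower (40%) and 4 not passing, with a median of 0.01, which is near the 38.1% and 38.3% of all tested genes. On library totals 7 rose and 13 fell, where 26.3% of all tested genes were called higher and 51.9% lower. The list as a whole thus stood close to the background on either scaling. MYD88, the adaptor that joins the receptor to the kinases, fell to 41.0 ± 2.23 CPM with melittin, against 78.3 ± 1.65 CPM in controls. The kinase gene IRAK4 fell to 18.8 ± 2.21 CPM, against 32.5 ± 1.33 CPM in controls, and ECSIT, an adaptor of TRAF6, rose to 16.7 ± 0.688 CPM, against 9.37 ± 0.702 CPM in controls. TAB2 and PELI1 did not pass, with log2 fold changes of 0.01 and −0.02, but both passed as lower on library totals (−0.22 and −0.25).

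Of 13 genes that restrain the signal, 12 (92.3%) rose and 1 (CYLD) fell, with a median of 1.02, beside 38.1% higher and 38.3% lower among all tested genes. On library totals 11 rose and 1 fell, beside 26.3% and 51.9%. SOCS3, an inhibitor of cytokine receptors, rose to 61.3 ± 1.83 CPM with melittin, against 9.36 ± 0.624 CPM in controls. IRAK3, the kinase-dead IRAK that blocks signalling from MYD88, rose to 112.7 ± 1.31 CPM, against 29.9 ± 1.25 CPM in controls. ZC3H12A, a nuclease that degrades cytokine transcripts, rose to 169.7 ± 4.06 CPM, against 55.4 ± 2.77 CPM in controls. SIGIRR is counted in this list as well as among the further family genes.

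Of 7 tested transcription factors listed for the IL1B gene, 5 (71.4%, beside 38.1% of all tested genes) rose, 1 fell and 1 did not pass (median 0.88). With library totals 4 rose and 2 fell, where 26.3% of all tested genes were higher and 51.9% lower. IRF8 rose to 92.3 ± 2.51 CPM with melittin, against 12.2 ± 1.14 CPM in controls, and HIF1A rose to 582.8 ± 5.98 CPM, against 237.5 ± 6.63 CPM in controls. SPI1, the myeloid master factor, had 291.2 ± 6.92 CPM with melittin and 281.7 ± 4.01 CPM in controls (log2 fold change 0.05, adjusted p = 0.11), and passed as lower on library totals (−0.18, adjusted p = 6.19e-07).

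Of 24 tested genes known to respond to interleukin-1, 20 (83.3%, beside 38.1% of all tested genes) rose, 1 (CCL2) fell and 3 did not pass, with a median of 1.62. With library totals 20 rose and 2 fell, where 26.3% of all tested genes were higher and 51.9% lower. These lists were drawn up with results of the same libraries known and are not independent evidence of a direction. CSF3, the granulocyte growth factor, rose to 39.0 ± 1.92 CPM with melittin, against 0.600 ± 0.174 CPM in controls, and CSF2 rose to 12.6 ± 0.757 CPM, against 0.209 ± 0.0745 CPM in controls. By their control libraries alone neither CSF3 nor CSF2 would have met the filter on low counts. CXCL2, a neutrophil chemokine, rose to 623.6 ± 13.1 CPM, against 55.8 ± 3.29 CPM in controls. BIRC3 and PTX3, the most abundant that did not pass, had log2 fold changes of 0.08 and 0.23, and BIRC3 passed as lower on library totals (−0.15).

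**Figure D5:**
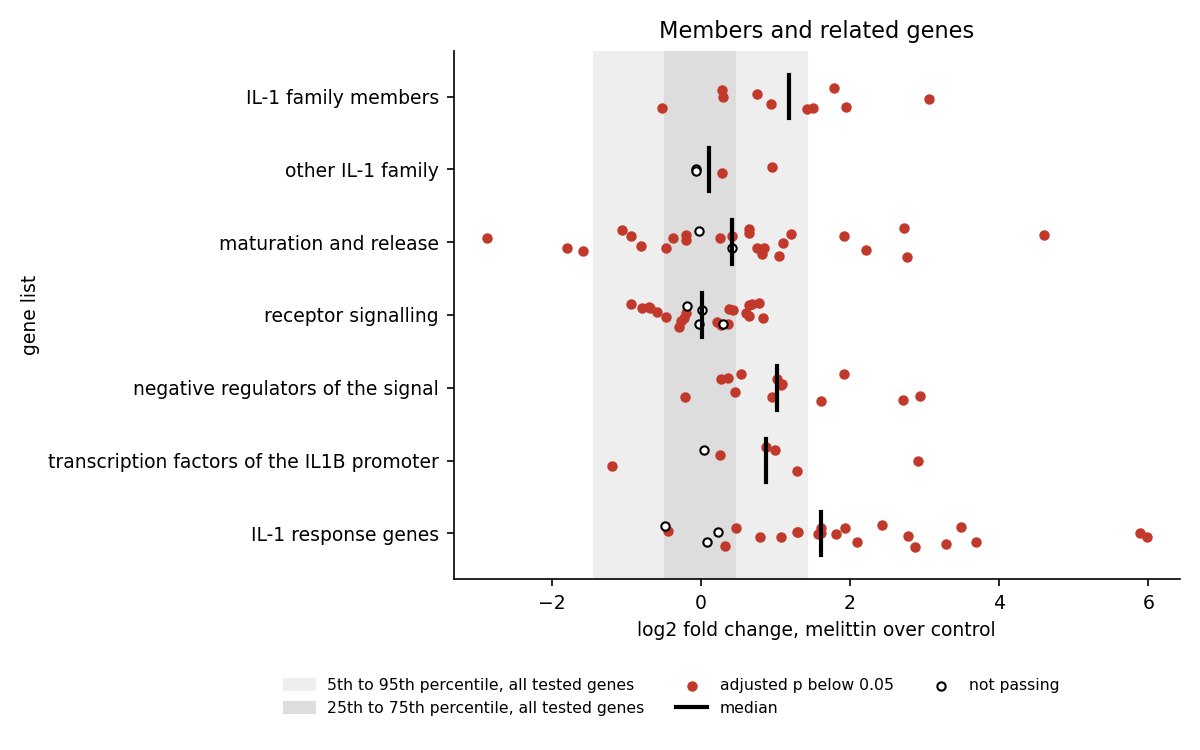
Log2 fold change of melittin over control for the 10 members (top row) and for the tested genes of 6 related lists, 1 point per gene, red where the adjusted p was below 0.05 and open where not, with a bar at each median. Grey bands give the 5th to 95th and 25th to 75th percentiles of all tested genes. Medians run from 0.01 in receptor signalling to 1.62 in the response genes.

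Genes whose profile over the 6 libraries was most like that of a member were sought among 7956 other genes with a mean of at least 10 CPM, by the root mean square difference of log2 CPM centred on each gene's mean. For IL1B these were CALU (0.0094), GABARAPL2 (0.0116) and PGD (0.0168), with 89 genes within 0.05. For IL1A they were MAP3K4 (0.0251), ITM2C (0.0260) and TMEM120A (0.0364), and for IL1RN they were FTL (0.0232), MMP3 (0.0295) and CSF1 (0.0309). In a design of 2 groups such a likeness mainly records a change of the same size.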

How the data were processed

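The study sequenced 6 THP-1 macrophage libraries, 3 with melittin and 3 controls. Libraries came from a NEBNext Ultra II kit on chloroform-extracted RNA, per the labels' protocols, and the build was GRCh38, per the submitters' processing notes. No aligner, counter or strand setting is named in those sources. The annotated table as deposited holds raw read counts per gene made by the authors, with names, coordinates and lengths. The FPKM values deposited beside them equal count over length and library total, and a further deposited table repeats them.

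Counts were tested with edgeR 4.0.16 in R 4.3.3 (filterByExpr, TMM, glmQLFit and glmQLFTest, two-sided, Benjamini-Hochberg over 12029 genes, threshold 0.05). CPM values use library totals times TMM factors, and SDs are over 3 libraries. An SE is the absolute log2 fold change divided by the square root of the F statistic. Ratios use counts plus 0.5 divided by length. Alternatives used limma 3.58.1, DESeq2 1.42.0, other scalings, filters and a 1.5-fold null, limma on log2(FPKM + 0.1), the length trend removed, a replicate block, and each library left out. Members, lists, alternatives and the naming rule were chosen with earlier results of these data known. The rule named all members, every detected further family gene, per list up to 3 passing genes with the largest change (mean at least 5 CPM) and up to 2 abundant ones that did not pass, and 3 nearest profiles; other genes were named after their values were seen. The fit was run on simulated data in which 200 genes changed. As 9190 genes were called in the real data, that simulation cannot test the scaling. The chi-square per degree of freedom between replicates was 2.23 to 3.92 with melittin and 1.73 to 1.76 in controls. All libraries were counted separately, although such values cannot show whether they came from separate cultures. SDs and SEs reflect spread among the libraries of a group, which could be technical, and the labels give no batch or date. The level of some listed genes, and a marker sum that rests on them, are not reported here.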

Additional observations from a re-analysis of the deposited data

How the results depend on the processing

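Over 17 alternatives, IL1A, IL1B, IL1RN, IL33, IL36G and IL1R2 kept their direction and their call in each. Their log2 fold changes ran from 1.20 to 1.44, 0.71 to 0.95, 1.56 to 1.80, 1.22 to 1.58, 2.71 to 3.22 and 1.70 to 1.97, in that order. No member changed direction. Against a fold change of 1.5, 3495 genes and 6 members passed, in place of 9190 and 10, since that test asks for a larger change. IL1R1 and IL1RAP lost their calls on library totals and in limma on log2(FPKM + 0.1), which carries the same scaling (log2 fold changes of 0.07 and 0.05, adjusted p = 0.108 and 0.509), and IL18 only against 1.5-fold. IL18BP ran from −0.75 on library totals, where it stood at −0.51 relative to the median gene as with TMM, to −0.40 without melittin replicate 3. IL37, IL36A, IL18RAP and IL1RL2 had too few counts to test in the main fit. With no filter on low counts 9 of the further family genes were tested, of which 3 were called as higher and 0 as lower. Of all genes tested without that filter 59.9% were called. With a library left out, 9 or 10 members and 8857 to 9147 genes were called, and the 5 ratios, in the order given above, differed by 0.83 to 0.86, 0.82 to 0.85, 0.46 to 0.50, 1.60 to 1.68 and −1.45 to −1.15.

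With the replicate number as a replicate block, 9050 genes and 10 members were called. The deviations of same-numbered libraries from their group means had correlations of −0.046, 0.018 and −0.019. With 3 libraries a group, such values cannot show whether equal numbers shared a culture or day, which the labels do not state. For the ratios the paired differences equal the unpaired ones, and the exact sign-flip test cannot give a p below 0.25.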
